A study of Mus musculus with 6 samples.

Results

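The myosin heavy chain genes encode the motor subunits of myosin II, and 10 of them were examined here across 6 arrays of primary mouse myoblasts: the developmental isoforms Myh3 and Myh8, the slow and cardiac isoforms Myh7, Myh6 and Myh7b, the adult fast isoforms Myh2, Myh1 and Myh4, and the non-muscle isoforms Myh9 and Myh10. They were taken by gene symbol from a table of 23279 named genes, and all 10 had a probe set (Entrez gene numbers 17883 for Myh3, 17885 for Myh8, 140781 for Myh7, 17888 for Myh6, 668940 for Myh7b, 17882 for Myh2, 17879 for Myh1, 17884 for Myh4, 17886 for Myh9 and 77579 for Myh10), so no member was lost to a filter. Activated and control cultures, 3 of each, came from C57bl6N mice carrying Pax7-CreERT2 together with a single floxed exon 3 allele of beta-catenin, Beta-cetenin-Exon3-loxP/+ in the submitters' spelling, and both groups carried both alleles. The myoblasts came from limb muscle and were expanded over 5 passages in 20% FBS with 2 ng/ml bFGF, then kept for 24 hours in 2% HS to differentiate. The differentiating cells received 4-OH tamoxifen in ethanol (activated, to recombine the allele) or ethanol alone (control), at a dose and for a time that the labels do not state. RNA came from 3 independent cultures of each condition, and whether these came from different animals is not stated. Recombination can occur only in cells that express Pax7, and the labels do not give the share of cells in which it did. The drug and the recombined allele cannot be told apart, because no culture received 4-OH tamoxifen without the floxed allele. The labels do not give the animals' age.

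A myosin II molecule is a pair of heavy chains, each with a motor head that binds actin and splits ATP and a rod through which molecules assemble into filaments. Skeletal muscle changes its heavy chains as it matures: embryonic (Myh3) and perinatal (Myh8) chains come first, and slow (Myh7) and fast (Myh2, IIa; Myh1, IIx; Myh4, IIb) chains mark the adult fibre types. Myh9 and Myh10 encode non-muscle myosins IIA and IIB, which drive cortical tension, migration and cell division in most cells, including undifferentiated myoblasts.

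In activated cultures 7 of the 10 heavy chain genes were higher and 3 lower than in control cultures. Their median log2 difference was 0.95, beside -0.08 over all genes, of which 40.3% were higher. Over genes at or above the median level only, the median difference was 0.12. The shares printed for all genes include dim genes and were not recounted without them. The isoforms of muscle sarcomeres were higher in 7 of 8 cases, led by Myh1 (8.42-fold), Myh8 (4.51-fold), Myh7 (4.44-fold), Myh4 (2.59-fold) and Myh3 (2.49-fold). Both non-muscle isoforms were lower, Myh10 at 0.470-fold and Myh9 at 0.681-fold. In 4 members each activated array lay above each control array, as it did for 5.4% of all genes, and in 1 member each activated array lay below, as for 7.4% of all genes. No member passed an adjusted p of 0.05 in limma (0 of 10, adjusted p 0.325 to 0.813), and neither did any other gene (0% of 23279). At an unadjusted p under 0.05 there were 5 members higher, against 4.44% of all genes, and 1 lower, against 3.42%. When the fit carried a replicate block, 28 genes of all (0.12%) passed as higher and 3 (0.0129%) as lower, and again none was a member.

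The values are log2 array intensities, so a difference of 1 is a doubling, and values are compared only within a gene. Fewer cells making an isoform and less of its RNA per cell cannot be told apart in these bulk samples. The adult fast genes Myh1, Myh2 and Myh4, and likewise Myh6 and Myh7, are close in sequence. The probe sequences are not used here, so signal shared between such neighbours cannot be told apart from signal of the named gene. The number of arrays limits the precision.

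The upstream sequences of the 5 members whose groups did not overlap are printed because 4 of these genes were higher together and 1 was lower. Each is the stretch of 250 bases before a gene's start in RefSeq (GRCm38.p6), read 5′ to 3′ on the gene's strand, with motif matches in capitals. Myh3, Myh8 and Myh1 lie in the skeletal heavy chain cluster on chromosome 11, Myh10 lies elsewhere on that chromosome, and Myh7 lies beside Myh6 on chromosome 14. Of the 2 starts listed for Myh7 the downstream one is shown.
Myh3, chr11:67078050-67078299, strand +: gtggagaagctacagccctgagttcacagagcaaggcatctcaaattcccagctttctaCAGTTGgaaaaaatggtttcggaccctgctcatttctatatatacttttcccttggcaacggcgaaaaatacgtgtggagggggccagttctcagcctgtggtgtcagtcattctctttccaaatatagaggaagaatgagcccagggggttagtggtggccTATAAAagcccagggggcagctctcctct
Myh8, chr11:67276874-67277123, strand +: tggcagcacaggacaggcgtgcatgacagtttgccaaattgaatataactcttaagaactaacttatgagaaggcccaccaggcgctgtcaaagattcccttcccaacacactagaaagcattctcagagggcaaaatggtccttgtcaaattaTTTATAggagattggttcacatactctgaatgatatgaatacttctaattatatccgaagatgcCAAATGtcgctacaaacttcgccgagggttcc
Myh1, chr11:67199852-67200101, strand +: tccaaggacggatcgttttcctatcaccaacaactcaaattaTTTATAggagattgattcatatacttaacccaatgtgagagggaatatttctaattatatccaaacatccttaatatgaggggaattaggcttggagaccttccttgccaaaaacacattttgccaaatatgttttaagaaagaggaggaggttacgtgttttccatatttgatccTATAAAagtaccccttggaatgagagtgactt
Myh7, chr14:54994550-54994799, strand -: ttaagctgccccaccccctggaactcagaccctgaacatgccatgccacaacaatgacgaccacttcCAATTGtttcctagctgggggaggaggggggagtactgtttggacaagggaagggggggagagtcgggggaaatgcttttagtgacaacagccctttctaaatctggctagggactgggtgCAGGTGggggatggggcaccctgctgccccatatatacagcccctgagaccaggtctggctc
Myh10, chr11:68691665-68691914, strand +: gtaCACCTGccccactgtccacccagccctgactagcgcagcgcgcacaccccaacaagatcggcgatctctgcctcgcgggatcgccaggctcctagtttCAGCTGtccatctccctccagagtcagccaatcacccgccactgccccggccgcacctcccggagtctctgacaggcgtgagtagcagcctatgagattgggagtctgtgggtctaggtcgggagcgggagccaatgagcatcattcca

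Each motif was searched on both strands. The E-box that MyoD and myogenin bind was searched as CANNTG. A core like that bound by MEF2 factors was searched as TAAAAATA. The MEF3 site was searched as TCAGGTT. The TCF/LEF core, through which beta-catenin acts on its target genes, was searched as CTTTGAT, and the box bound by the TATA-binding protein as TATAAA. None overlapped another in these 5 windows. An E-box was found upstream of 8 of the 10 members, against 66.2% of all 32851 windows of that length. TATAAA was found upstream of 5 of 10, against 12.4%, the MEF2-like core upstream of 1 (Myh7b), against 2.45%, the TCF/LEF core upstream of 1 (Myh6), against 3.21%, and the MEF3 site upstream of 0, against 3.49%. Myh3, Myh1 and Myh4 carried TATAAA on the gene strand between 40 and 16 bases before the start, a placement found in 1.99% of all windows. The Myh1 and Myh2 windows held no E-box. A match describes letters in the window, not a bound site.

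**Figure D1:**
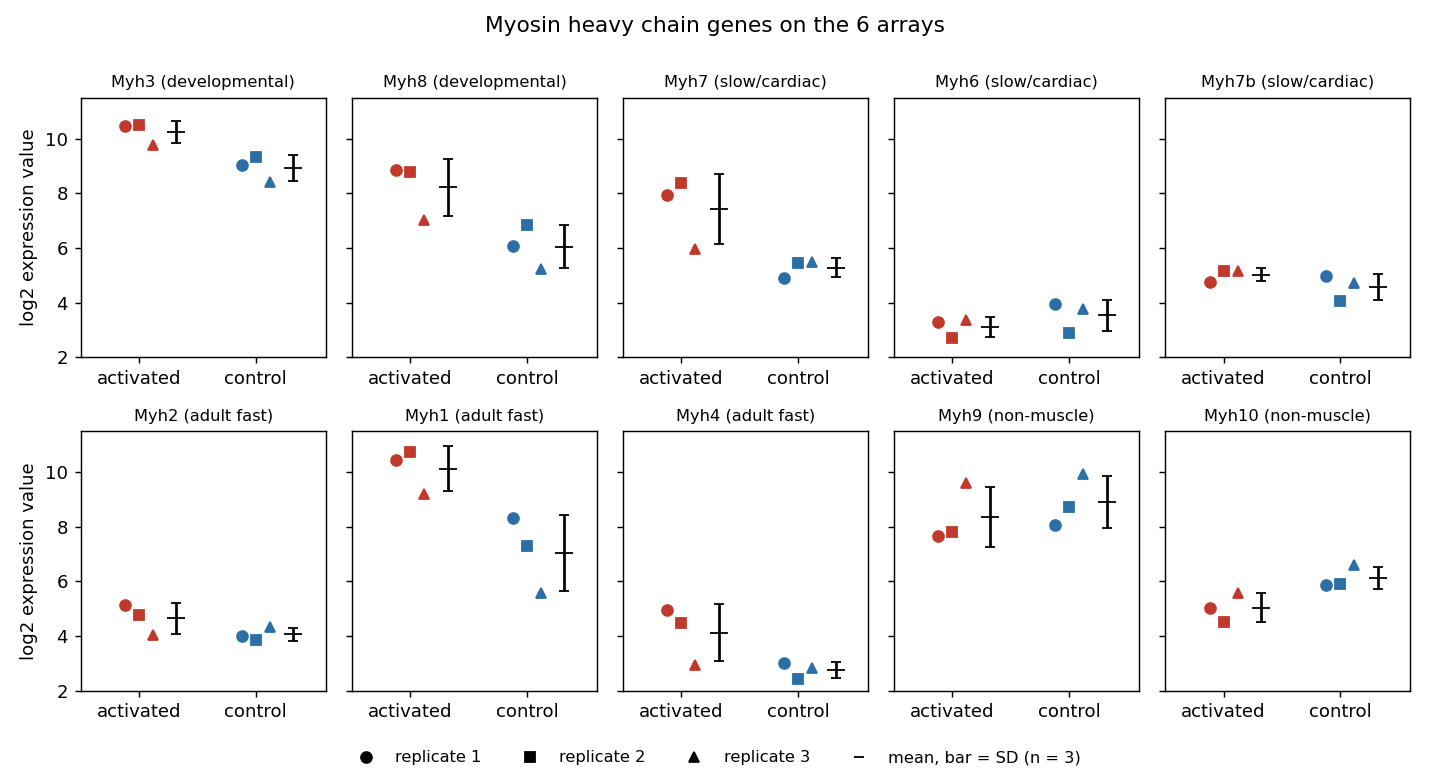
Log2 expression value (y axis) of the 10 heavy chain genes on each array, activated cultures left and control cultures right, with the marker shape giving the replicate number and the bar the mean and SD of 3 cultures. Myh3, Myh8, Myh7 and Myh1 are higher on each activated array than on each control array, and Myh10 is lower.

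Among the developmental isoforms, Myh3, the embryonic heavy chain and among the first to be made when myoblasts differentiate, was at 10.46, 10.49 and 9.79 in activated replicates 1, 2 and 3 and at 9.04, 9.35 and 8.40 in control replicates 1, 2 and 3. The groups did not overlap, and replicate 3 was the lowest in each group. The means were 10.25 ± 0.39 in activated and 8.93 ± 0.48 in control cultures (SD, n = 3), a log2 difference of 1.32 ± 0.33 (SE; limma, adjusted p = 0.355). The pairs of equal replicate number differed by 1.41, 1.14 and 1.39. The difference was 0.94 after quantile normalization and 0.82 after cyclic loess.

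Myh8, the perinatal heavy chain, was at 8.84, 8.80 and 7.03 in activated replicates and at 6.06, 6.84 and 5.25 in control replicates. The groups did not overlap, although the lowest activated array was only just above the highest control array, and again replicate 3 was lowest in each group. The means of 8.22 ± 1.03 in activated and 6.05 ± 0.80 in control cultures (SD, n = 3) differed by 2.17 ± 0.59 (SE; limma, adjusted p = 0.397). The pairs differed by 2.78, 1.95 and 1.78.

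Among the adult fast isoforms, Myh1, the IIx chain, had the largest difference of the 10 genes, and ranked 5 from the highest among all 23279 genes. It was at 10.45, 10.75 and 9.19 in activated replicates and at 8.31, 7.29 and 5.56 in control replicates. The groups did not overlap, and the control arrays spanned a wider range than the activated arrays. The means were 10.13 ± 0.83 in activated and 7.05 ± 1.39 in control cultures (SD, n = 3), and the difference was 3.07 ± 0.71 (SE; limma, adjusted p = 0.325). It was 2.33 without control replicate 3, which held the lowest value.

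Myh4, the IIb chain of the fastest fibres, was at 4.96, 4.49 and 2.94 in activated replicates and at 3.02, 2.42 and 2.84 in control replicates. On the deposited scale activated replicates 1 and 2 stood above all control arrays, and activated replicate 3 lay among them. After quantile normalization activated replicate 3, at 3.02, lay above the control arrays at 2.75, 2.55 and 2.74. The difference was 1.37 ± 0.51 (SE; limma, adjusted p = 0.575), and 1.97 without activated replicate 3. Myh2, the IIa chain, was at 5.16, 4.77 and 4.03 in activated replicates and at 4.01, 3.84 and 4.32 in control replicates. Its groups overlapped as deposited, again through activated replicate 3, and also after quantile normalization. Its difference was 0.59 ± 0.33 (SE; limma, adjusted p = 0.696), and the third pair ran opposite to the others, at -0.29 against 1.15 and 0.93. The difference was 0.34 without activated replicate 1 and 0.91 without activated replicate 3.

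Among the slow and cardiac isoforms, Myh7, the slow fibre chain that is also the beta chain of heart muscle, was at 7.94, 8.37 and 5.98 in activated replicates and at 4.89, 5.45 and 5.50 in control replicates. All activated arrays were above all control arrays, with activated replicate 3 far below the other activated arrays. The means were 7.43 ± 1.28 in activated and 5.28 ± 0.34 in control cultures (SD, n = 3), and the difference was 2.15 ± 0.59 (SE; limma, adjusted p = 0.402). Without activated replicate 3 the difference was 2.88 and the adjusted p 0.0477, the one setting under which a member passed. In that setting, which drops the lowest activated array, 28 of all 23279 genes passed. Over all alternatives the adjusted p of Myh7 ran from 0.0477 to 1. The pairs differed by 3.05, 2.93 and 0.47.

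Myh6, the alpha chain of heart muscle and the neighbour of Myh7, was at 3.31, 2.70 and 3.36 in activated replicates and at 3.96, 2.89 and 3.75 in control replicates, with a difference of -0.41 ± 0.34 (SE; limma, adjusted p = 0.762). Its groups overlapped. The difference was -0.73 without control replicate 2, -0.20 without control replicate 1 or without activated replicate 2, -0.24 after quantile normalization and -0.22 after cyclic loess. Its mean level stood at percentile 31.2 of all genes. A probe set's brightness also depends on its probes and no detection calls were used, so that percentile does not show whether the gene was transcribed. Myh7b, a slow tonic chain gene, was at 4.76, 5.15 and 5.16 in activated replicates and at 4.98, 4.05 and 4.73 in control replicates. Its difference was 0.44 ± 0.30 (SE; limma, adjusted p = 0.739) with overlapping groups, and 0.17 without control replicate 2.

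Of the non-muscle isoforms, Myh10 (myosin IIB) was at 5.03, 4.52 and 5.57 in activated replicates and at 5.88, 5.91 and 6.60 in control replicates. All activated arrays lay below all control arrays, and replicate 3 was the highest in each group. The means of 5.04 ± 0.53 in activated and 6.13 ± 0.40 in control cultures (SD, n = 3) differed by -1.09 ± 0.34 (SE; limma, adjusted p = 0.479), and the pairs by -0.85, -1.39 and -1.02.

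Myh9 (myosin IIA) was at 7.67, 7.80 and 9.62 in activated replicates and at 8.07, 8.73 and 9.95 in control replicates. The groups overlapped because replicate 3 was more than a unit above the others in each group, while each activated array lay below the control array of its own number, by -0.41, -0.93 and -0.33. The difference of means was -0.55 ± 0.65 (SE; limma, adjusted p = 0.813), and it depended on single arrays. It was -0.04 without control replicate 3, -0.21 without activated replicate 1 and -0.27 without activated replicate 2, but -1.19 without activated replicate 3 and -0.98 without control replicate 1. It was -0.85 after quantile normalization and -0.97 after cyclic loess.

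**Figure D2:**
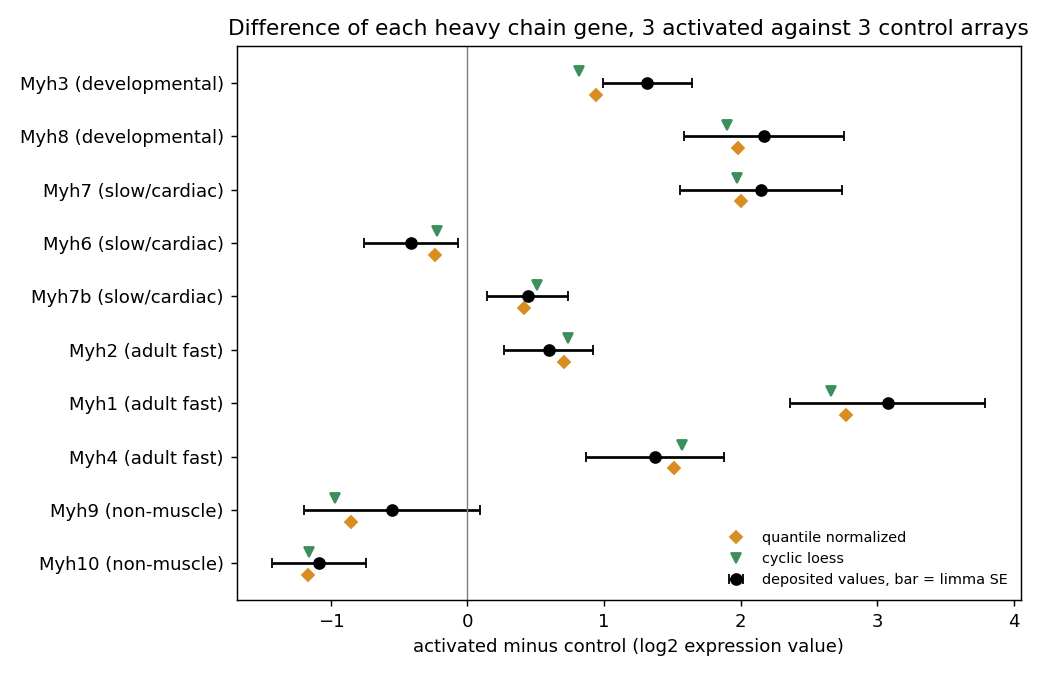
Activated minus control difference of each heavy chain gene on the log2 scale (x axis), with the limma SE as the bar, and the same difference after quantile normalization and cyclic loess. Differences run from 3.07 for Myh1 to -1.09 for Myh10, and no gene changes sign under either normalization.

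Replicate numbers are shared between groups and same-numbered arrays deviated together, so the differences within pairs were also fitted with the replicate number as a block. The numbers come from the sample titles alone, and the block was chosen from the same values that it tests. Its p-values are therefore given as a description. The members nearest to passing were then Myh1 (adjusted p = 0.0507), Myh8 (0.0541), Myh3 (0.0669) and Myh10 (0.0991), all from limma with the block. For 5 members every pair was higher in the activated culture (Myh3, Myh8, Myh7, Myh1 and Myh4), as it was for 16.6% of all genes. For 3 members every pair was lower (Myh6, Myh9 and Myh10), a share close to the 25% of all genes that did so. Myh3, Myh8 and Myh1 were lowest in replicate 3 of both groups, and Myh9 and Myh10 were highest there.

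**Figure D3:**
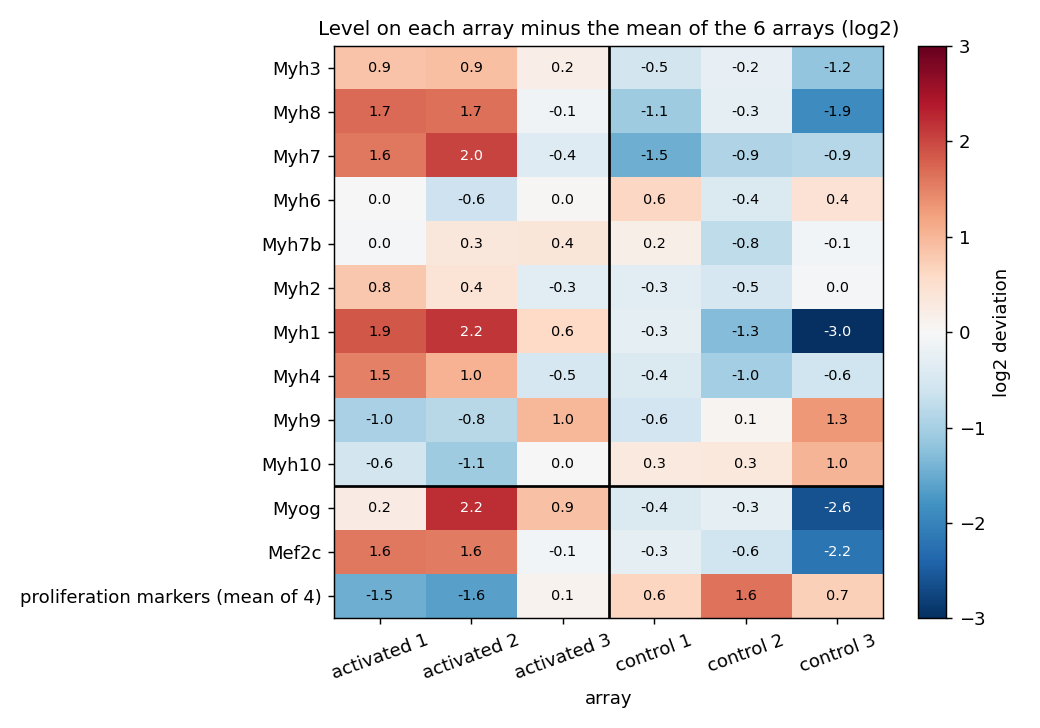
Deviation of each gene's level on an array from its mean over the 6 arrays (colour and printed number, log2), with activated arrays on the left, control arrays on the right, and Myog, Mef2c and the mean of 4 proliferation markers below the line. Activated replicate 3 is below the 6-array mean in Myh8, Myh7, Myh4 and Myh2, unlike the other activated arrays, and control replicate 3 has the lowest Myh1.

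The isoform classes were set against each other within each array, which removes any shift common to a whole array. The mean of the developmental isoforms minus that of the non-muscle isoforms was higher in activated cultures by 2.56, and by 2.73, 2.71 and 2.26 in pairs 1, 2 and 3, and the groups did not overlap. For the fast isoforms minus the non-muscle isoforms the shift was 2.50 (pairs 2.37, 3.31 and 1.82). For the slow and cardiac isoforms it was 1.55 (1.36, 2.44 and 0.84), and groups overlapped in both. Over genes at or above the median level only, which left out Myh4 and Myh6, these shifts were 2.66 and 2.12. The fast and developmental classes shifted by nearly equal amounts, differing by -0.06, with pairs at -0.35, 0.61 and -0.44. No test was run on these differences, which are descriptions.

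**Figure D4:**
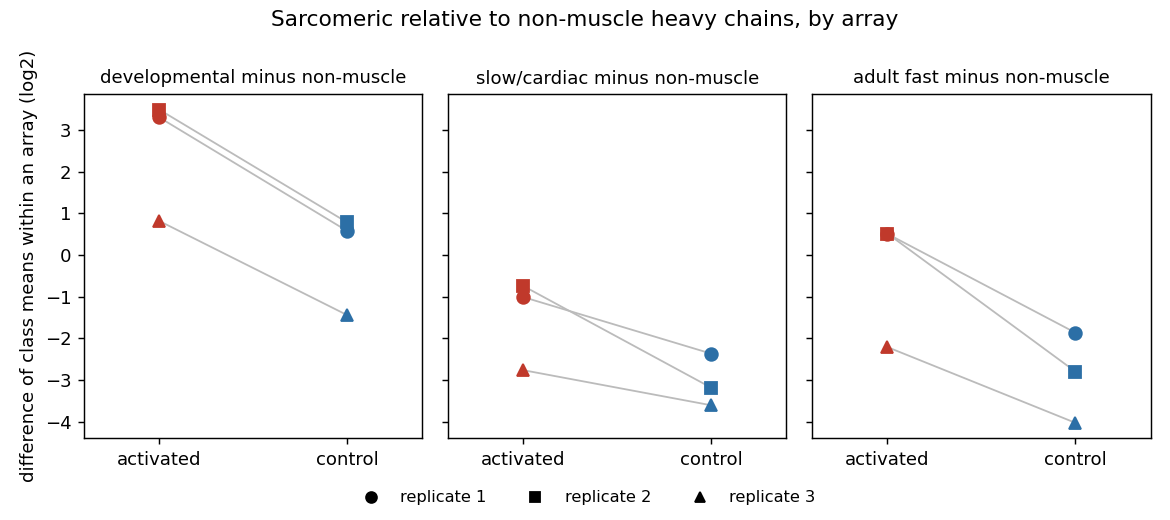
Mean log2 level of each sarcomeric class minus that of the non-muscle isoforms within an array (y axis), activated cultures left and control cultures right, with a grey line joining arrays of the same replicate number. The activated end of every line is the higher one, and replicate 3 is the lowest of each group in all 3 panels. The zero of the axis has no meaning, because brightness differs between probe sets.

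Single isoforms shifted by unequal amounts inside the classes. Myh1 differed more than Myh2 in every pair, their difference within an array being higher in activated cultures by 2.48 (pairs 0.99, 2.53 and 3.92), and the groups did not overlap. Against Myh4 the extra shift of Myh1 was 1.70 (0.19, 1.38 and 3.53). Against Myh3 it was 1.76 (0.72, 2.31 and 2.24), and neither comparison had overlap. By mean level Myh2 and Myh4 stood at percentiles 51.3 and 33.8 of all genes, and Myh1 at 97.65. How far the size of a shift depends on a probe set's brightness was not tested. Against Myh7 the extra shift of Myh1 was 0.92 with pairs of mixed sign (-0.91, 0.53 and 3.15) and overlapping groups. Myh8 shifted more than Myh3 in each pair, by 0.86 on average (1.37, 0.81 and 0.39), with overlap between groups.

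Along chromosome 11 the skeletal genes follow each other as Myh3, Myh2, Myh1, Myh4, Myh8 and Myh13, with 248.8 kb between the starts of the first and the last in the RefSeq promoter table. The differences in that order were 1.32, 0.59, 3.07, 1.37, 2.17 and -0.39. They did not run in order of position, and the 2 genes with the largest differences, Myh1 and Myh8, are separated by Myh4. Myh13, the extraocular and laryngeal chain, was at 3.12, 2.93 and 3.15 in activated replicates and at 3.15, 3.38 and 3.83 in control replicates (limma, adjusted p = 0.729). The highest activated and lowest control values were equal to 2 decimals, and the difference was -0.19 after quantile normalization. Of the other heavy chain genes, the smooth muscle chain Myh11 differed by -0.16, the non-muscle IIC chain Myh14 by -0.33 and Myh15 by -0.04. The sign of Myh11 turned to 0.01 after quantile normalization, and that of Myh15 to 0.09.

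**Figure D5:**
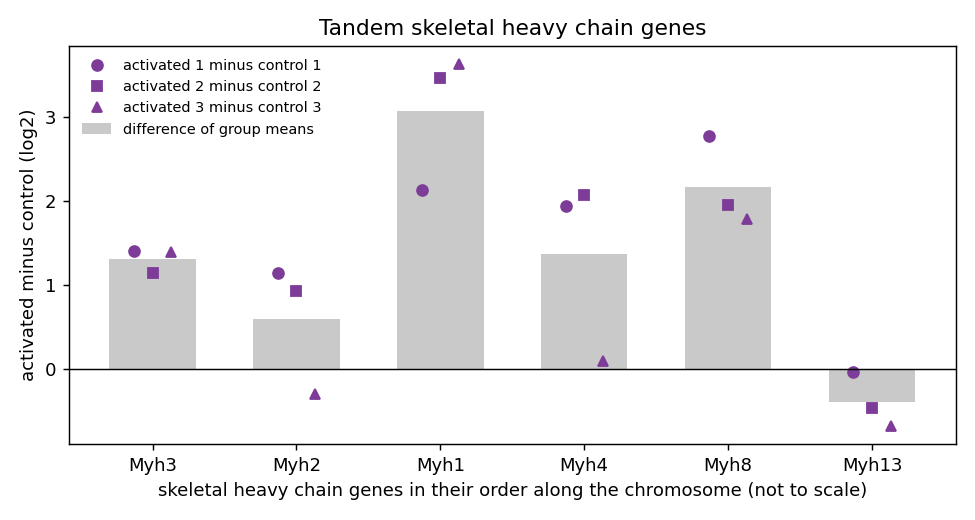
Activated minus control difference (y axis, log2) of the 6 tandem skeletal heavy chain genes in chromosomal order, with bars for the difference of group means and points for the 3 pairs of equal replicate number. Myh1 and Myh8 have the highest bars, and Myh13 at the end of the cluster is below zero.

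The introns of Myh6, Myh7 and Myh7b carry the microRNA genes Mir208a, Mir208b and Mir499, known as a family tied to cardiac and slow muscle genes. Their mature arms are shown because they fall into groups by seed, the bases 2 to 8 in capitals, with one seed in miR-208a-3p and miR-208b-3p and another in miR-499-5p (RefSeq, GRCm38.p6).
mmu-miR-208a-3p, chr14:54949072-54949093, strand -: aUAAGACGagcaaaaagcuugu
mmu-miR-208b-3p, chr14:54975710-54975731, strand -: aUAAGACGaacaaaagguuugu
mmu-miR-499-5p, chr2:155622893-155622913, strand +: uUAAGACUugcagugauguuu

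The array's probe sets for these microRNA genes lay near the dim end, between 1.88 and 3.06. Mir208b was at 1.94, 2.13 and 1.88 in activated replicates and at 2.22, 1.89 and 1.90 in control replicates, a difference of -0.02, against 2.15 for its host Myh7. Its mean level stood at percentile 3.07 of all genes, and whether these probe sets read the mature arms was not checked. The values therefore do not show whether Mir208b follows Myh7. Mir499 differed by -0.21 and Mir208a by -0.16, with overlapping groups. None passed in limma (adjusted p 0.821 to 0.977). The sign of Mir208b turned to 0.06 after quantile normalization.

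Light chains bind the neck of each heavy chain. Of 7 sarcomeric light chain genes measured, 6 were higher in activated cultures (median difference 1.69), 3 without overlap and 0 past the adjusted p. Over all genes 40.3% were higher, and 5.4% were higher without overlap. The fast chain Myl1 differed by 1.88 ± 0.60 (SE), the embryonic and atrial chain Myl4 by 1.96 and the slow chain Myl6b by 1.98. Of 3 non-muscle light chain genes all were higher, Myl12a by 1.17, Myl12b by 0.89 and Myl9 by 0.11, the last turning to -0.25 after quantile normalization. Myl3, the slow and ventricular chain and the 1 lower sarcomeric light chain gene, differed by -0.34 and lies outside the rule for named genes.

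Genes of slow and of fast fibres other than the heavy chains were mostly higher. The gene lists share some genes, so their counts are not separate results. Myl2 and Myl3 of the slow list and Myl1 and Mylpf of the fast list are also in the light chain list. Mybpc2 is in the fast and thick filament lists, and Myog, Myod1 and Myf5 are in the regulator and myoblast lists. Of 9 slow fibre genes 8 were higher (median 1.32, 4 without overlap), and of 11 fast fibre genes 10 were higher (median 1.36, 4 without overlap), with 0 of either past the adjusted p without the block. The shares over all genes were 40.3% higher and 5.4% higher without overlap. Those shares include dim genes, while the median level was 8.93 in the slow list and 8.22 in the fast list. The slow troponin T gene Tnnt1 differed by 1.24 and the slow fibre calcium pump Atp2a2 by 1.03, and the fast troponin T gene Tnnt3 by 1.36 and the fast fibre calcium pump Atp2a1 by 1.30. With the block 1 slow fibre gene passed, the Z-disc gene Myoz2 (limma, adjusted p = 0.0434), and it did not pass with the block after quantile normalization. Pvalb, a calcium buffer of adult IIb fibres, was at 4.24, 3.93 and 4.13 in activated replicates and at 4.85, 3.95 and 4.15 in control replicates. It was the 1 fast fibre gene that was lower, and was chosen after its values were seen.

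Heavy chains need chaperones to fold and partners to assemble into thick filaments. A list of such genes also held the ubiquitin ligase gene Trim63 and its relatives Trim54 and Trim55. Of the 14 genes measured in it, 13 were higher (median 1.30, 6 without overlap, 0 past the adjusted p). Among all genes 40.3% were higher, and 5.4% were higher without overlap. The 6 were Myom1, Myom2, Myom3, Mybph, Trim54 and Trim55, with no chaperone gene among them. The myosin chaperone Unc45b was at 5.24, 6.21 and 4.93 in activated replicates and at 5.01, 4.77 and 4.83 in control replicates, an overlap, with a difference of 0.59. Smyd1, a methyltransferase of muscle that helps myosin assembly, differed by 1.63 ± 0.61 (SE; limma, adjusted p = 0.580). Its relative Unc45a, the widely expressed form of the Unc45 chaperone, was the 1 lower gene of the list, at -0.57 with overlapping groups, and was chosen after its values were seen.

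Of 23 measured transcriptional regulators of muscle and of fibre type, 19 were higher (median 0.45, 7 without overlap, 0 past the adjusted p). Among all genes 40.3% were higher, and 5.4% without overlap. Mef2c, a MADS-box factor of muscle genes, and Ppargc1a, a coactivator of the slow and oxidative programme, passed with the block (limma, adjusted p = 0.0479 for each), and neither did so when the blocked fit was made on quantile-normalized values, where 0 genes passed. Ppargc1a was at 5.88, 6.67 and 5.61 in activated replicates and at 4.04, 4.49 and 3.25 in control replicates. Tbx15, a factor of fast glycolytic fibres, differed by 1.45, Mef2a by 0.99, and the TEAD factor Tead4 was 2.29-fold higher. Myog, the regulator of terminal differentiation, was at 9.36, 11.34 and 10.01 in activated replicates and at 8.68, 8.85 and 6.51 in control replicates, with control replicate 3 lowest, as for Myh1. Sox6, a repressor of slow genes, differed by 0.35, Six4 by -0.12 and Myod1 by 0.16. Six4 turned to 0.01 after median centring and Myod1 to -0.20 after quantile normalization.

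The rule of likeness, Pearson r over the 6 arrays outside the heavy chain family, gave for Myh3 the genes Lmo7 (0.9978), Mypn (0.9960), Pdpk1 (0.9954), Srl (0.9952) and Plk2 (0.9951). Mypn encodes the sarcomeric protein myopalladin and Srl the calcium store protein sarcalumenin. For Myh9 it gave Washc2 (0.9958), Nav1 (0.9955), Zfp704 (0.9952), Rad54l2 (0.9945) and Cnot3 (0.9929). The 5 genes like Myh9 share its high replicate 3 in both groups: Nav1, for instance, was at 6.10, 6.37 and 8.66 in activated replicates and at 6.51, 7.60 and 9.43 in control replicates. These coefficients describe 6 arrays that fall into 2 groups, and were picked as the highest of all genes.

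Of the 6 myoblast markers 5 were higher in activated cultures, against 40.3% of all genes, and 3 were higher without overlap, against 5.4%. The 3 were desmin, Cdh15 and Myog, the last a regulator of terminal differentiation with a difference of 2.22. The count therefore does not show whether myoblast identity differed. Desmin (Des) lay at 10.30 to 11.31 in activated and 8.77 to 9.81 in control cultures (difference 1.56), and Cdh15 differed by 1.03. Myod1 lay between 8.64 and 10.23 over all arrays, and the myogenic factor Myf5 was dimmest, at 4.04 to 5.46. Pax7, whose promoter drives the Cre, was at 7.08 to 7.99 in activated and 7.77 to 8.39 in control cultures (-0.60; limma, adjusted p = 0.688), with overlap. The mean over 9 cardiac markers was 3.79 to 4.02 in activated and 4.01 to 4.47 in control cultures, although the list holds Gata4 at 5.96 to 6.65. In activated cultures 8 of the 9 were lower, against 59.7% of all genes. The means over 5 leukocyte markers (3.33 to 3.68 in activated, 3.26 to 4.08 in control), 6 endothelial markers (2.93 to 3.30 and 3.18 to 3.50) and 8 fibroblast markers (3.97 to 4.27 and 4.18 to 4.36) are given without a floor, and the brightest of these genes were Col3a1 of the fibroblast list (up to 7.57) and Cd68 of the leukocyte list (up to 7.33). Over 9 smooth muscle markers the mean was 5.42 to 5.73 in activated and 5.53 to 5.70 in control cultures, but its bright members differed in opposite directions. Acta2 was at 9.39 to 10.58 in activated and 8.75 to 9.55 in control cultures (difference 1.08). Rgs5, a pericyte gene and the one of smallest p in the list, was at 7.17 to 8.74 in activated and 8.67 to 10.46 in control cultures (-1.78; limma, adjusted p = 0.473), with overlap. Cnn1 lay at 2.22 to 2.54 over all arrays. Proliferation markers were lower in activated cultures. The mean of the 4 measured ones was 5.68, 5.51 and 7.25 in activated replicates and 7.79, 8.77 and 7.86 in control replicates, with 4 of 4 lower and no overlap. Over all genes 59.7% were lower, and 7.4% were lower without overlap. Activated replicate 3, the activated array with the lowest Myh3, Myh8, Myh7, Myh1, Myh4 and Myh2, had the highest proliferation mean of its group. The control arrays showed no such order. Control replicate 3 had the lowest Myh3, Myh8 and Myh1 at a proliferation mean of 7.86. Control replicate 2 had the highest proliferation mean and the highest Myh3 and Myh8, and control replicate 1 the lowest proliferation mean and the highest Myh1 and Myh4. The part of proliferation in the heavy chain differences was not tested.

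Median log2 values of the 6 arrays ran from 4.04 to 4.36 and their SDs from 1.72 to 2.12. Control replicate 3 correlated least with the rest (mean r 0.896). Axin2, a feedback target of beta-catenin used to check the activation, was higher in activated cultures by 1.65 ± 0.35 (SE; limma, adjusted p = 0.290), with pairs at 0.95, 2.04 and 1.95. The Ctnnb1 probe set, with a difference of 0.02, covers the whole gene and does not check the loss of exon 3.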

How the data were processed

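RNA of 6 cultures (100 ng each) was labelled for Affymetrix whole-transcript arrays, per the labels' protocols. The values are on the log2 scale as deposited, 1 per probe set. The submitters' processing notes name RMA and Partek, with neither version nor role, and the background correction, the genome build and the probes behind each value are unstated in the labels. Of 24479 probe sets, 23281 had 1 gene symbol in the platform annotation, 0 several and 1198 none. For 2 symbols with several probe sets the brighter was kept, leaving 23279 genes, without any filter on low values or added pseudocount.

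limma 3.58.1 in R 4.3.3 fitted group alone to all 23279 genes (moderated two-sided test, Benjamini-Hochberg adjustment, called at 0.05). The script was tested on simulated data. The labels state independent cultures but not separate animals, and a p-value therefore covers only the variation from culture to culture. The replicate numbers come from the sample titles. Deviations of same-numbered arrays from their group means correlated at 0.38, 0.487 and 0.45, all above the minimum of 0.1, so the numbers were taken as pairs and a fit with the replicate block is given where it changes a count of calls. Arrays of unlike number were not compared in this way, so the correlations do not show that the cultures were paired.

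The members and lists were chosen with earlier results of these data known. Named genes were all members, the other heavy chain genes, and up to 4 genes of smallest p from each list, of which only those that bear on the members are printed, together with a few fixed regulators. Some listed genes, and protein sequences, were not analysed here. Upstream and microRNA sequences are from RefSeq (GRCm38.p6), and all 10 members matched by symbol.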

Additional observations from a re-analysis of the deposited data

How the results depend on the processing

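The direction of each member's difference was the same in all 138 values obtained under the 14 alternatives (normalization, replicate block, filter, variance model, array weights and each array left out), with 7 members higher in each except the filter on dim genes, which removed Myh4 and Myh6 and left 6. The replicate block, the filter and the variance model cannot move a member's difference in this balanced design. Their values repeat others, so only the remaining alternatives could have changed a direction. No member passed in any of them except Myh7 without activated replicate 3. The count of genes past the adjusted p, 0 as deposited, was 31 with the replicate block, 0 with the block after quantile normalization, and 0 to 28 when 1 array was left out, the 28 without activated replicate 3. Fits on quantile-normalized, median-centred and cyclic loess values, with trend and robust variance, with array weights and above the median level gave 0 each. When 1 array was left out, the shift against the non-muscle isoforms ran from 1.86 to 3.43 for developmental, 1.17 to 2.18 for slow and cardiac and 1.94 to 3.41 for fast isoforms, and each stayed positive. Members above without overlap numbered 4 to 6, and members below 1, or 2 without activated replicate 3 or without control replicate 2. Members above numbered 5 after quantile normalization, median centring or cyclic loess, with all arrays kept. Groups also separate more easily when an array is left out. The share of all genes that separated was not counted for any of these recounts. These recounts were chosen after seeing the data. Median centring moved the median difference of all genes to 0.04 and split the genes at an unadjusted p under 0.05 into 1317 higher and 537 lower, against 1034 and 796 as deposited. Those counts were 2242 and 1633 with the replicate block, 522 and 385 without activated replicate 2, and 1592 and 1474 without control replicate 2. No background or detection values were used here, so no floor was set for dim probe sets.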

Other observations

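Tnni3, the cardiac troponin I gene and the cardiac marker with the smallest p, was at 4.52, 4.63 and 4.80 in activated replicates and at 5.51, 5.41 and 6.71 in control replicates. All activated arrays lay below all control arrays (log2 difference -1.23, limma, adjusted p = 0.446), while the slow troponin I gene Tnni1 was higher by 2.24. Trim63, the ubiquitin ligase MuRF1 that targets myosin heavy chains for degradation in wasting muscle, was at 6.10, 7.12 and 3.29 in activated replicates and at 3.83, 3.72 and 4.31 in control replicates. Activated replicates 1 and 2 were above all control arrays, but activated replicate 3 was below them all (log2 difference 1.55, limma, adjusted p = 0.702). Tnni1 and Trim63 were chosen after their values were seen.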
